A study of Mus musculus with 24 samples.

Results

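Paneth cell defensins and enzymes are the granule products of the Paneth cell, a secretory cell at the base of small intestinal crypts. Of the 39179 genes counted, 9 were taken by name: the alpha-defensins Defa3, Defa5, Defa17, Defa24, Defa26 and Defa30, the lysozyme Lyz1, the metalloprotease Mmp7 and the ribonuclease Ang4. The data are raw read counts per gene from 24 RNA-seq libraries of mouse gut tissue, in 8 groups of 3. WT cecum and WT stomach came from untreated wild-type mice, and Cdx2+/- cecum from untreated heterozygotes. Cdx2-/- cecum (genotype Cdx2f/f::AhCreERT, 6 libraries), Cdx2-/-;Apc+/- cecum and Cdx2-/-;Apc+/- ileum (both Cdx2f/f::AhCreERT::ApcD14/+) carried floxed Cdx2 alleles and a Cre driven by the Cyp1a1 (Ah) promoter, and were given tamoxifen and β-naphthoflavone. Apc+/- ileum (ApcD14/+) was untreated, but the genotype entries of its replicates 1 and 3 also name floxed Cdx2 and Cre, against their descriptions. Every Cdx2-/- group was thus treated and every other group untreated, so treatment and Cdx2 genotype cannot be told apart. The 6 Cdx2-/- cecum libraries form 2 sets by their library codes, set 1 (replicates 1 to 3) and set 2 (replicates 4 to 6). No source used here gives the ages of the mice or says whether replicates are separate animals.

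The normal mouse cecum and colon have few or no Paneth cells, whereas the ileum is rich in them. Alpha-defensins are small bactericidal peptides stored in the granules as inactive precursors. Mmp7, matrilysin, cuts these precursors into active peptides in the mouse, Lyz1 digests bacterial cell walls, and Ang4 is an antimicrobial ribonuclease that goblet cells can also make. Cdx2 is the homeobox factor that maintains intestinal identity, and Apc restrains Wnt signalling, which Paneth cells need to mature.

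The libraries held 36567685 to 87975179 gene reads. Levels are CPM, read counts scaled to TMM-normalised library size, and fold changes are log2 values ± SE. Calls rest on the edgeR quasi-likelihood test over 20502 genes, with a Benjamini-Hochberg threshold of 0.05. All 9 members passed the count filter. Defa3, Defa5, Defa17 and Defa26 had at most 1 read in WT cecum and passed through other groups, so against WT cecum they could not be called lower. Cdx2 had 408 to 663 CPM in WT cecum, 130 to 349 in Cdx2-/- cecum, 115 to 118 in Cdx2+/- cecum, 122 to 151 in Cdx2-/-;Apc+/- cecum, 36.9 to 178 in Cdx2-/-;Apc+/- ileum and 63.3 to 112 in Apc+/- ileum. All 6 libraries labelled Cdx2-/- cecum thus had more Cdx2 reads than every library labelled Cdx2+/-, the reverse of what the labels name, and the 2 ileum groups overlapped. Which part of Cdx2 is deleted is not given in the sources used here, so reads from outside it check nothing. Set 1 had the Xist level of female mice and the other 21 libraries the Ddx3y level of males, so sex goes with the set. Set 1 replicates 2 and 3 were far closer to each other than any other pair of one group (chi-square of 7.03 per degree of freedom, against 53.0 to 507), and may share a source. Markers of other tissue types also differed: the summed level of the 6 ileal enterocyte markers was 135 to 293 CPM in WT cecum, 19.8 to 281 in Cdx2-/- cecum, 1066 to 2305 in Cdx2+/- cecum, 1069 to 2739 in Apc+/- ileum and 146 to 8910 in Cdx2-/-;Apc+/- ileum. In bulk tissue, fewer cells of a type and less RNA per cell cannot be told apart.

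The sequences show how alike the 6 defensins are, which bears on every count. Their coding sequences, taken from the GENCODE vM21 annotation of GRCm38, are all 282 bases long. Those of Defa3 (ENSMUSG00000074440, chr8:21287409-21288377) and Defa17 (ENSMUSG00000060208, chr8:21655780-21656735) are identical over all 282 bases. Defa24 (ENSMUSG00000064213, chr8:21734494-21735471) and Defa30 (ENSMUSG00000074444, chr8:21134642-21135598) match at 98.6%. Defa26 (ENSMUSG00000060070, chr8:21618183-21618972) matches the others apart from Defa5 at 89.4 to 92.9%, and Defa5 (ENSMUSG00000074439, chr8:21297439-21298375) matches the rest at 83.3 to 85.5%. All 6 lie on the plus strand of a single cluster. The last 90 coding bases, positions 193 to 282, are shown 5′ to 3′ because they lie in the part that codes for the mature peptide, with capitals where a base differs from Defa3.
Defa3: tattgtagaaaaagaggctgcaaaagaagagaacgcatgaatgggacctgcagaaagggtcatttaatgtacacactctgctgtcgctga
Defa17: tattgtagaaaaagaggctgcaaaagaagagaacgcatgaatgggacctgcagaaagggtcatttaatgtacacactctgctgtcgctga
Defa24: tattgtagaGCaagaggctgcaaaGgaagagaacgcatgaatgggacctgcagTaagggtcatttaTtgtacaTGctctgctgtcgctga
Defa30: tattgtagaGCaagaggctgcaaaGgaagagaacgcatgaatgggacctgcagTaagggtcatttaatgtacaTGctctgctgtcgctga
Defa26: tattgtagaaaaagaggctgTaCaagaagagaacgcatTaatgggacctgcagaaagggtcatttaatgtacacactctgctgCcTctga
Defa5: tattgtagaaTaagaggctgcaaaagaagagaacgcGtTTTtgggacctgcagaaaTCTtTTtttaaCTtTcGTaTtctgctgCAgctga

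Reads from such genes can be exchanged between copies. Of all 100-base windows of the Defa24 transcript, 0 occur in another gene, and for Defa30 the share is 0.334% and for Defa26 1.1%. For Defa17, Defa5 and Defa3 it is 90.6, 88.1 and 86.8%. Counts of Defa24 therefore rest on sequence of its own at this window length, while Defa3 and Defa17 share most of theirs with each other, and Defa5 with other genes of the cluster, among them Defa34 to Defa37. At 50 bases, 28.1% of the Defa24 windows are shared. Lyz1 (ENSMUSG00000069515, chr10:117287797-117292868, minus strand) shares 2.06% of its 100-base windows with Lyz2, the macrophage lysozyme. Mmp7 (ENSMUSG00000018623, chr9:7692090-7699585, plus strand) shares 2.58% with AV064505, and Ang4 (ENSMUSG00000060615, chr14:51763878-51773590, minus strand) none.

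Promoter sequence from RefSeq (GRCm38.p6, 250 bases before to 50 after the annotated start) was at hand for 4 members: Defa30, Lyz1, Mmp7 and Ang4. Those of Defa30 (chr8:21134400-21134699) and Mmp7 (chr9:7691840-7692139), both on the plus strand, are printed because both genes rose in the comparisons described below and both hold matches to the binding motifs of the CDX and TCF families, the factors named by the study's alleles and by Wnt signalling. Capitals mark matches on either strand to the CDX motif TTTATNG, to the TCF motif, and to the TATA box TATAAA. The TCF motif was searched as CTTTGAT, as the form CTTTGTT, then as CTTTGAA, and with a final TA as CTTTGTA.
Defa30: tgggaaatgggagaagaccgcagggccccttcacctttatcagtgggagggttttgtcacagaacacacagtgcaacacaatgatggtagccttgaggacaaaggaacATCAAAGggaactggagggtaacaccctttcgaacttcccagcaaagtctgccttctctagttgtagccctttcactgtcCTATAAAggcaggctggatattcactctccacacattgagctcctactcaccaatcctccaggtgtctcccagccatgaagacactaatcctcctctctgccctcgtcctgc
Mmp7: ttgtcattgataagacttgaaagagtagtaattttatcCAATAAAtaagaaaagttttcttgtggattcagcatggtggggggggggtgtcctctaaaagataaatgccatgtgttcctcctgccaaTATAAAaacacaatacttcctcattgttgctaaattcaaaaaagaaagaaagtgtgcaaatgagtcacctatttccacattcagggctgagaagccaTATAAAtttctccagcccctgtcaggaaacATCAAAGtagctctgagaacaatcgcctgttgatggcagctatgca

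In Defa30 the CDX match at position -62 overlaps the TATA box at -61, and the TCF match lies at -142, counted from the start site. In Mmp7 the CDX match lies at -212, TATA boxes at -123 and -26, and the TCF match at 4. RefSeq lists a further Mmp7 start downstream, which is not shown. Neither the Lyz1 nor the Ang4 promoter holds any of the 3 motifs in this window. Of 32851 mouse promoters of the same length, 10.9% hold the CDX motif, 16.9% a TCF motif and 13.6% the TATA box. Of the 16 Defa promoters in the same set, 13 hold CDX, 13 TCF and 15 TATA, but in 0 of the 16 does a CDX match lie clear of the TATA box, against 7.61% of all promoters. A match describes the letters and is not a binding site.

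The comparison of Cdx2-/- with WT cecum asks how Paneth cell genes respond when Cdx2 is deleted in a tissue that normally has few Paneth cells. Most of the defensins, their processing enzyme and lysozyme rose together, and Ang4 went the other way. Of the 9 members, 6 were called higher (Defa3, Defa17, Defa24, Defa30, Lyz1 and Mmp7), 1 lower (Ang4), and Defa5 and Defa26 were not called. Over all genes tested, 26.9% were called higher and 26.2% lower, and the median log2 change was 0.04 against 7.91 for the members.

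Defa24, the defensin with the most counted reads, had 0.238, 0.188 and 0 CPM in WT cecum. In Cdx2-/- cecum it had 41.4, 134 and 127 CPM in set 1 and 92.7, 27.8 and 383 CPM in set 2. Every Cdx2-/- library was far above every WT library, although the 6 spanned a 13.8-fold range with replicate 6 on top. Means were 134 ± 129 (SD, n = 6) against 0.142 ± 0.126 CPM (SD, n = 3). The adjusted p was 6.74e-06 (edgeR), and the log2 change lay between 9.25 and 10.60 in all 17 alternatives.

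Defa30 had 0.318, 0.0418 and 0 CPM in WT cecum, against 2.27, 58.8 and 58.1 CPM in set 1 and 17.5, 5.05 and 22.2 CPM in set 2. The groups did not overlap, and the log2 change was 7.91 ± 1.27. Defa3 had 1 read in a single WT library and 2233 reads over the 6 Cdx2-/- libraries, 0.675 to 11.7 CPM, a ratio of 947 with a counting interval of 170 to 37410. For Defa17, WT cecum gave 0 reads and Cdx2-/- cecum 0.368 to 6.60 CPM, which was at least 67.4-fold higher, taking 3 reads per library as the floor. Such intervals and floors cover counting error only.

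Defa5 and Defa26 had 0 reads in WT cecum and were scarce in Cdx2-/- cecum. Defa5 had 0, 22, 29, 12, 0 and 0 reads in Cdx2-/- replicates 1 to 6, and Defa26 had 1, 33, 15, 36, 0 and 2. For both, the reads lay almost wholly in replicates 2, 3 and 4. Their adjusted p in edgeR was 0.0895 and 0.0617. DESeq2 called both, with an adjusted p of 0.0168 for each, and over all alternatives the adjusted p ran from 0.0168 to 1.00 for Defa5 and from 0.0130 to 0.220 for Defa26.

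Mmp7 had 0.874, 0.711 and 0.0297 CPM in WT cecum. It had 95.2, 334 and 337 CPM in set 1 and 66.5, 79.9 and 551 CPM in set 2. All 6 Cdx2-/- libraries were above all 3 WT libraries, with replicate 6 again the highest. The log2 change was 8.90 ± 1.13 (adjusted p = 2.72e-06, edgeR). Set 1 alone gave 8.97 and set 2 alone 8.84.

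Lyz1 had 1.06, 0.523 and 7.37 CPM in WT cecum, against at most 42.1 CPM in set 1 and 61.3, 14.0 and 477 CPM in set 2. The lowest of the 6 was replicate 5, at 14.0 CPM. The groups did not overlap, and the log2 change was 4.70 ± 1.13 (adjusted p = 0.00177, edgeR). The highest WT library, replicate 3, also had the most Lyz2 (154 CPM, against 43.7 and 43.0) and the highest sum of the 8 macrophage markers (346 CPM, against 138 and 133). The macrophage sum was 480 to 856 CPM in Cdx2-/- cecum, and its part in the Lyz1 change was not tested. With Lyz1 and Lyz2 added up, the log2 change was 1.58 ± 0.54 (adjusted p = 0.0187, edgeR).

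Ang4 had 73.8, 5.77 and 21.5 CPM in WT cecum. It had 0.305, 1.30 and 1.80 CPM in set 1 and 71.7, 1.84 and 0.111 CPM in set 2. Of the 6 Cdx2-/- libraries 5 were below all WT libraries, and replicate 4 was near the highest. The log2 change was -2.68 ± 1.09 (adjusted p = 0.0443, edgeR), and this call did not hold in 10 of 18 alternatives, with adjusted p between 0.000394 and 0.786. Set 1 alone gave -4.91 and set 2 alone -0.45 (adjusted p = 0.0126 and 0.786, edgeR). The call was also lost without WT cecum replicate 1 (-1.38) and without Cdx2-/- replicate 1, 2, 3 or 5.

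**Figure D1:**
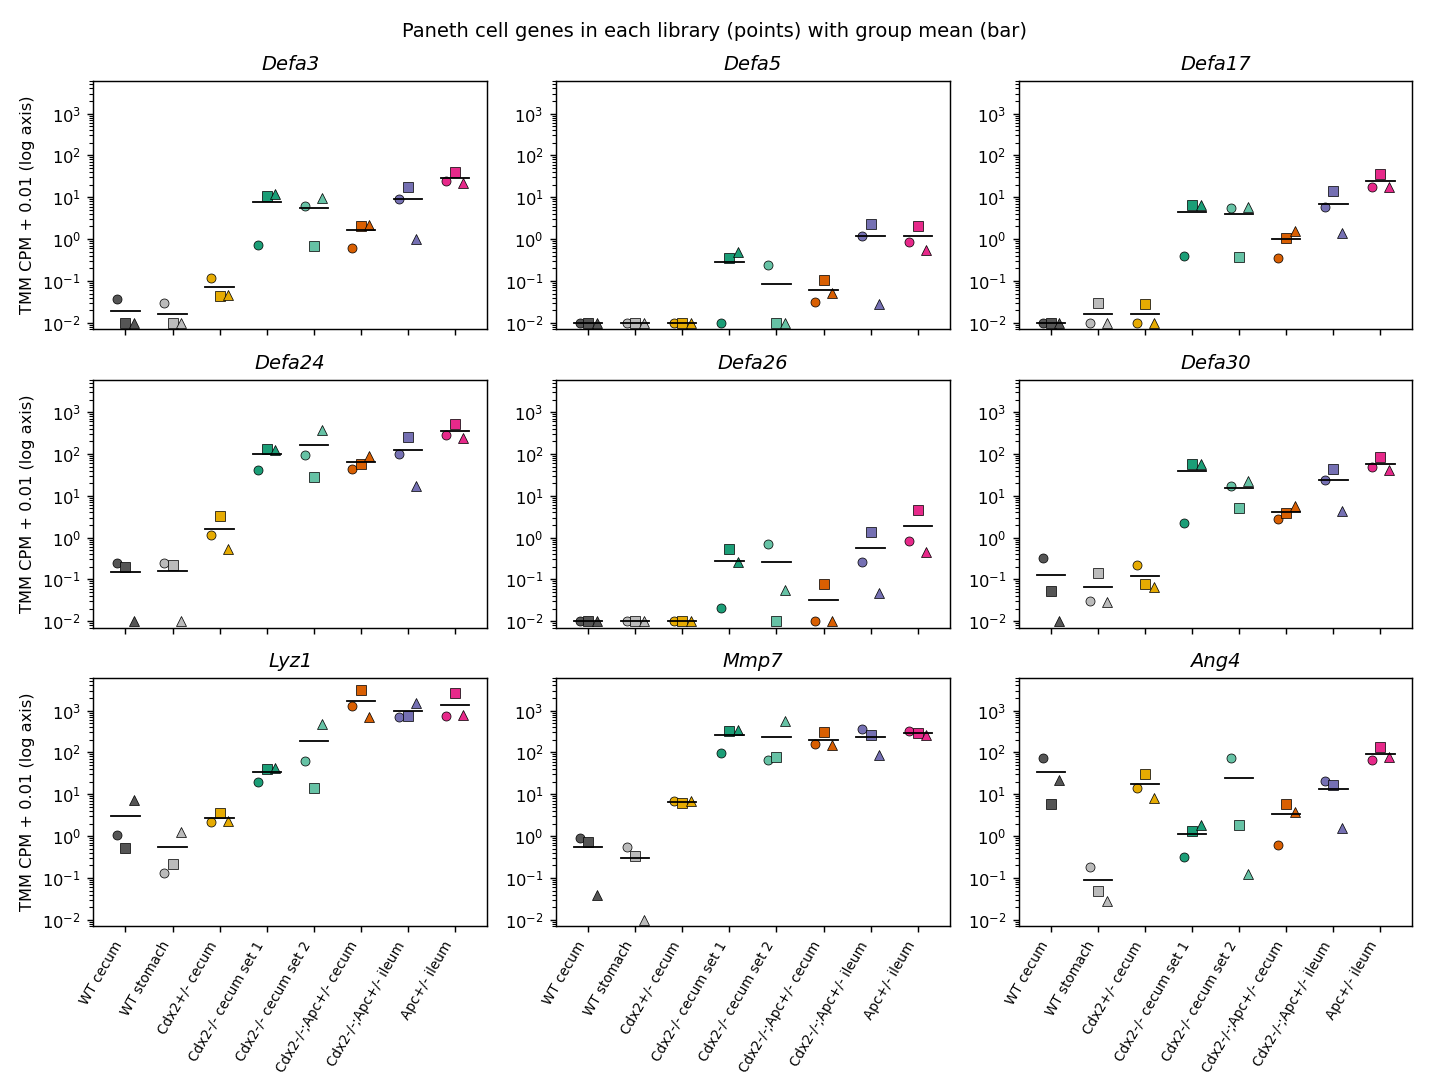
Level of each of the 9 genes (TMM CPM plus 0.01, log axis) in the 24 libraries. Points are libraries (circle, square and triangle for replicates 1 to 3, and 4 to 6 in set 2), bars are group means. Defa3, Defa17, Defa24, Defa30, Lyz1 and Mmp7 stand high in the 3 Cdx2-/- cecum groups and both ileum groups. Defa5 and Defa26 stay low, with some Cdx2-/- cecum libraries at 0 reads, whereas Ang4 is highest in Apc+/- ileum and WT cecum.

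The wider set of Paneth cell genes moved in the same comparison. Of 33 other Defa genes and pseudogenes, 11 passed the filter on low counts, and 7 of these were called higher and 0 lower. The 11 had at most 2 reads each in WT cecum and passed through other groups, so a lower call was not possible. The 4 most abundant of them over all libraries, Defa20, Defa21, Defa22 and Defa37, had means of 1.78, 4.39, 3.68 and 3.00 CPM in Cdx2-/- cecum. In WT cecum they had 0, 0.00883, 0.0158 and 0.00883 CPM. All 4 were called higher, though their libraries overlapped with WT. Of 11 other Paneth cell products, 9 were called higher and 0 lower. Among them, Habp2, a hyaluronan-binding protease, went from 0.327 to 59.4 CPM (7.54 ± 0.54), and Reg3g, an antimicrobial lectin, from 9.06 to 1059 CPM (6.78 ± 0.95). Agr2, a protein folding factor of secretory cells, went from 144 to 773 CPM (2.42 ± 0.37), and Reg3g and Agr2 are not specific to Paneth cells. The 11 products summed to 133 to 344 CPM in WT cecum and 1735 to 2710 in Cdx2-/- cecum. Their sum was larger in Cdx2+/- cecum (3053 to 6390 CPM) and in WT stomach (24053 to 33207 CPM), so it is not specific either.

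Of 12 Paneth cell fate and secretory regulators, 8 rose and 3 fell, with a median log2 change of 1.13. The 12 summed to 816 to 921 CPM in WT cecum and 1570 to 1993 in Cdx2-/- cecum. Their sums in Cdx2+/- cecum (1513 to 1615 CPM) and WT stomach (1850 to 2422 CPM) overlapped the latter, so the sum is not specific to Paneth cells. The regulators named next are all among the 8, so they do not stand for the list. Sox9, a transcription factor that Paneth cell formation needs, rose from 18.8 to 104 CPM (2.42 ± 0.26). Spdef, a factor of goblet and Paneth cell maturation, rose from 16.8 to 129 CPM (2.92 ± 0.31), and Xbp1, a factor of the secretory stress response, from 171 to 470 CPM (1.46 ± 0.17). Of the 5 niche signals, 2 were called higher and 2 lower. The Notch ligands Dll1 and Dll4 changed by 0.58 ± 0.19 and 0.77 ± 0.25, and the EGF receptor ligand Tgfa by -0.92 ± 0.18. All 5 other matrix metalloproteases examined, none of them a matrilysin, rose, with Mmp10 at 158 against 0.876 CPM and Mmp3 at 29.5 against 0.219 CPM. These stromelysins are also made outside the epithelium. Goblet cell markers did not move as a group, with 1 of 7 higher (Spink4), 1 lower (Clca1) and the rest not called, and their sum was 2480 to 7292 CPM in Cdx2-/- cecum against 3699 to 9053 in WT. The 5 neutrophil markers were all called higher (sum 54.7 to 232 against 3.62 to 4.72 CPM), and so were 5 of 6 gastric surface and neck markers. Their part in the members' changes was not tested.

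What the loss of 1 Cdx2 allele does was read from the heterozygous against the wild-type cecum. Only Mmp7 and Defa24 were called among the 9, both higher, and 0 were lower, where 17.1% of all genes were called higher and 17.3% lower. The median log2 change was 0.14 for the members and -0.05 for all genes. Mmp7 had 6.80, 6.24 and 6.83 CPM, all above the 0.0297 to 0.874 CPM of WT, a log2 change of 3.70 ± 0.97 (adjusted p = 0.00592, edgeR). Defa24 had 1.17, 3.21 and 0.513 CPM, also above every WT library, a change of 3.69 ± 1.28 (adjusted p = 0.0312, edgeR). The Defa24 call was lost without WT replicate 1, 2 or 3 or without Cdx2+/- replicate 2, and its adjusted p ranged from 0.00958 to 0.149 over 11 alternatives. With all Defa rows added up, the change was 2.71 ± 1.23 (adjusted p = 0.0970, edgeR).

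The remaining 7 members were not called in the heterozygote. Lyz1 had 2.15, 3.63 and 2.34 CPM, within the WT range, and Ang4 14.5, 31.3 and 8.21 CPM, also within it. Defa30 had 0.217, 0.0695 and 0.0549 CPM. Defa3 had 9 reads in all against 1, a ratio of 8.70 with a counting interval of 1.20 to 381, and Defa17 had 1 read. Defa5 and Defa26 had no read in either group, where a count of 0 allows up to 3 reads per library. Of the other Paneth cell products 7 of 11 were called higher and 1 lower, led by Habp2 (7.45 ± 0.55), Agr2 (3.00 ± 0.41) and Reg3g (6.69 ± 0.97). The other Defa genes summed to 0.217, 0.104 and 0.0366 CPM, against 0.132, 0.0418 and 0 CPM in WT. The Cdx2+/- cecum also had the highest sum of gastric surface and neck markers of any intestinal group, 31488 to 32816 CPM, against 5.20 to 686 in WT cecum, and its part was not tested.

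Against Cdx2+/- cecum, the Cdx2-/- cecum had 6 members higher and 0 lower, where 19.7% of genes were higher and 20.6% lower. The 6 were Defa3, Defa17, Defa24, Defa30, Lyz1 and Mmp7. This comparison shares its Cdx2-/- libraries with the one against WT cecum. Changes were 6.31 ± 1.10 for Defa24, 7.77 ± 1.25 for Defa30, 5.20 ± 0.92 for Mmp7 and 4.86 ± 1.14 for Lyz1, and for each of these the libraries did not overlap. Ang4 was not called (-1.78 ± 1.09, adjusted p = 0.196, edgeR). Ileal enterocyte markers went the opposite way, with 5 of 6 lower in Cdx2-/- cecum and 0 higher, and Cdx2 reads were higher in the libraries labelled Cdx2-/- than in those labelled Cdx2+/-.

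The 2 Cdx2-/- sets were compared with each other. No member was called by edgeR (0 higher and 0 lower, where 4.03% of genes were higher in set 2 and 6.45% lower), 2 members had an unadjusted p under 0.05, and DESeq2 called 1, Ang4. Ang4 differed by 4.46 (24.6 ± 40.8 against 1.13 ± 0.760 CPM, SD, n = 3, adjusted p = 0.0630, edgeR) and Lyz1 by 2.45 ± 1.06 (adjusted p = 0.146, edgeR), each resting on 1 library of set 2. In Ang4 this was replicate 4, and in Lyz1 replicate 6. Defa24 (0.74 ± 0.89) and Mmp7 (-0.14 ± 0.80) differed by less than their SE.

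The Cdx2-/-;Apc+/- cecum asks what a mutant Apc allele adds. Against WT cecum, 6 members were called higher and 0 lower, where 26.6% of genes were higher and 26.1% lower. The members' median was 7.48, against 0.07 for all genes. The 6 had the same names as in Cdx2-/- cecum, with the WT libraries shared. Defa24 had 43.4, 56.2 and 90.3 CPM (8.96 ± 1.36), Defa30 2.76, 3.77 and 5.78 CPM (5.34 ± 1.24) and Mmp7 158, 300 and 152 CPM (8.64 ± 1.14). Defa3 had 222 reads, 244-fold the WT level with a counting interval of 43.3 to 9671, and Defa17 was at least 15.7-fold higher. Defa5 had 7 reads in all and Defa26 3, too few for a fold. Ang4 had 0.595, 5.73 and 3.72 CPM, all below the lowest WT library at 5.77 CPM, and was not called (-3.33 ± 1.41, adjusted p = 0.0548, edgeR). It was called lower in 4 of 12 alternatives, among them DESeq2 (adjusted p = 0.0296), with adjusted p between 0.0178 and 0.265.

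Set directly against Cdx2-/- cecum, Cdx2-/-;Apc+/- cecum had more Lyz1. Lyz1 had 1309, 3176 and 699 CPM in Cdx2-/-;Apc+/- cecum, and 14.0 to 477 CPM in Cdx2-/- cecum. No libraries overlapped, and the log2 change was 4.46 ± 0.87 (adjusted p = 0.00695, edgeR). Lyz1 was the only member called of the 9, with 0 lower, where 3.93% of genes were higher and 4.50% lower. Lyz2 did not follow, with 144, 129 and 193 CPM against 118 to 308 CPM. The sum of macrophage markers was 506 to 588 CPM against 480 to 856. With Lyz1 and Lyz2 added up, the change was 2.92 ± 0.48 (adjusted p = 0.00284, edgeR).

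The strength of this Lyz1 result depended on the Cdx2-/- set. Set 1 alone gave 5.68 (adjusted p = 0.00361, edgeR), while set 2 alone, the set whose sex-linked genes match, gave 3.23 (adjusted p = 0.316). Without Cdx2-/-;Apc+/- cecum replicate 2 the change was 3.67 (adjusted p = 0.0515). Over 18 alternatives, among them the Lyz1 and Lyz2 sum at 2.92, the log2 change ranged from 2.92 to 5.81. The adjusted p (edgeR or DESeq2) ranged from 0.000102 to 0.316, with 16 calls.

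The defensins had lower means in Cdx2-/-;Apc+/- than in Cdx2-/- cecum, but none of the 6 was called. The log2 differences were -1.04 ± 0.80 for Defa24, -2.57 ± 0.87 for Defa30 (adjusted p = 0.0699, edgeR), -2.02 ± 0.87 for Defa3 and -2.09 ± 0.92 for Defa17. Defa30 was called under 3 alternatives, without Cdx2-/- set 1 replicate 1, against set 1 alone and with a replicate block. Mmp7 (-0.26 ± 0.70) and Ang4 (-0.65 ± 1.19) differed by less than their SE. Among the other Paneth cell products 2 of 11 were called, both lower: Mptx1 (0.0139 against 5.10 CPM) and Mptx2 (0.170 against 3.95 CPM), pentraxins made in the mouse gut.

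The reads of Lyz1 per read of Defa24 restate the Lyz1 difference library by library, since they use the same Lyz1 values. The ratio was 0.293 to 1.24 in the 6 Cdx2-/- cecum libraries, and 30.2, 56.5 and 7.74 in Cdx2-/-;Apc+/- cecum. It was 2.63, 4.94 and 3.23 in Apc+/- ileum and 7.06, 2.95 and 85.9 in Cdx2-/-;Apc+/- ileum. All 9 libraries with the mutant Apc allele were thus above all 6 Cdx2-/- libraries without it, but the 9 also include both ileum groups. Other cecum libraries without the allele reached the range of Apc+/- ileum. The ratio was 1.83, 1.13 and 4.57 in Cdx2+/- cecum, and 4.44 and 2.78 in WT cecum replicates 1 and 2. Defa24 had only 18 reads in all of WT cecum, and 0 in replicate 3. The Mmp7 to Defa24 ratio ran from 0.717 to 2.87 in Cdx2-/- cecum and from 1.68 to 5.33 in Cdx2-/-;Apc+/- cecum, and these overlapped.

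**Figure D2:**
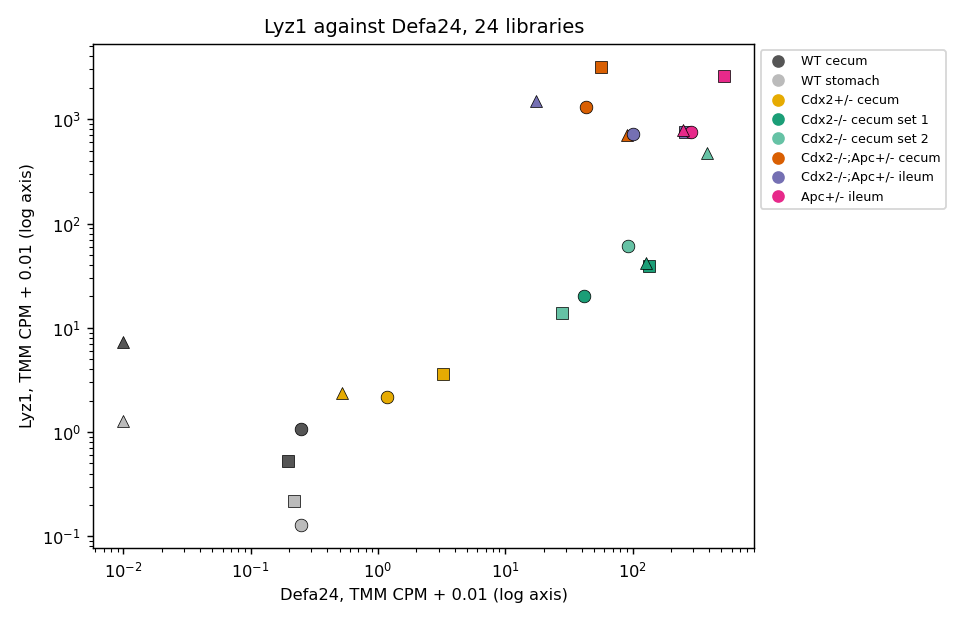
Lyz1 against Defa24 (both TMM CPM plus 0.01, log axes), each point a library coloured by group. At Defa24 levels of 17.5 to 526 CPM, the libraries with mutant Apc lie at 699 to 3176 CPM of Lyz1, above the 14.0 to 477 CPM of Cdx2-/- cecum.

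The ileum comparison set the libraries labelled Cdx2-/-;Apc+/- against those labelled Apc+/-. No member was called by edgeR, 0 had an unadjusted p under 0.05 and DESeq2 called 0. Few genes were called at all, 0.395% higher and 0.0488% lower. The median difference was -1.49 for the members and 0.03 for all genes. Defa24 had 290, 526 and 247 CPM in Apc+/- ileum and 101, 258 and 17.5 CPM in Cdx2-/-;Apc+/- ileum (-1.49 ± 0.90). Ang4 had 65.0, 138 and 78.5 against 21.2, 16.4 and 1.53 CPM (-2.85 ± 1.37, adjusted p = 0.513, edgeR), with no overlap between the groups. Defa3 (9.06, 17.1 and 0.975 against 24.5, 41.1 and 21.5 CPM) and Defa17 also did not overlap, and neither was called. Defa3 and Defa17 share most of their sequence, so they are not separate results. Groups of 3 can separate by chance, and the share of all genes without overlap was not computed.

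For Lyz1 and Mmp7 the ileum groups overlapped, with differences under their SE. Lyz1 had 716, 761 and 1507 CPM against 762, 2602 and 797 CPM (-0.48 ± 1.00). Mmp7 had 373, 261 and 87.2 CPM against 321, 287 and 258 CPM (-0.26 ± 0.80). The lowest values of the 6 defensins and Ang4 in that group all came from Cdx2-/-;Apc+/- ileum replicate 3, which had the highest Lyz1 of its group. That library had 1.34 CPM of the ileal bile acid binding protein Fabp6, the lowest of the 6 ileum libraries. Its sum of ileal enterocyte markers was 918 CPM, between the 146 CPM of replicate 1 and the 8910 CPM of replicate 2, and their part in its values was not tested. Leaving out Apc+/- ileum replicates 1 and 3, whose labels conflict, gave no call either.

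Between cecum and ileum of the same labelled genotype, Cdx2-/-;Apc+/-, edgeR called 0 members in either direction, where 6.60% of genes were higher in cecum and 9.59% lower. Of the 9, 5 had an unadjusted p under 0.05, and DESeq2 called 0. These 5 were all defensins with a lower mean in cecum: Defa3 (-2.50 ± 0.96), Defa5 (-4.47 ± 1.63), Defa17 (-2.85 ± 1.01), Defa26 (-4.51 ± 1.99) and Defa30 (-2.55 ± 0.93). Without ileum replicate 3, edgeR called 4 of them lower, Defa3, Defa5, Defa17 and Defa30. Defa24 (-0.99 ± 0.89), Mmp7 (-0.24 ± 0.80) and Lyz1 (0.80 ± 1.01) were not called. Of the 11 other Defa genes tested 5 were called lower in cecum, among them Defa21, Defa22 and Defa37, and of 11 other Paneth cell products 6 were lower and 1 higher.

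As a scale for the cecum values, Apc+/- ileum was set against WT cecum, which differ in tissue and Apc genotype together. Of the 9 members, 8 were higher and 0 lower, where 28.1% of genes were higher and 27.2% lower, and only Ang4 was not called (93.7 ± 38.6 against 33.7 ± 35.6 CPM, mean ± SD, n = 3). Defa24 differed by 11.44 ± 1.46, Mmp7 by 9.15 ± 1.17 and Lyz1 by 8.84 ± 1.41. Defa17 was at least 386-fold, Defa26 at least 30.5-fold and Defa5 at least 18.7-fold higher. All 11 tested other Defa genes were higher. With at most 2 reads each in WT cecum, they passed the count filter through other groups and could not have been called lower. WT stomach, by contrast, had at most 0.237 CPM of Defa24, 0.532 of Mmp7, 1.26 of Lyz1 and 0.177 of Ang4.

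**Figure D3:**
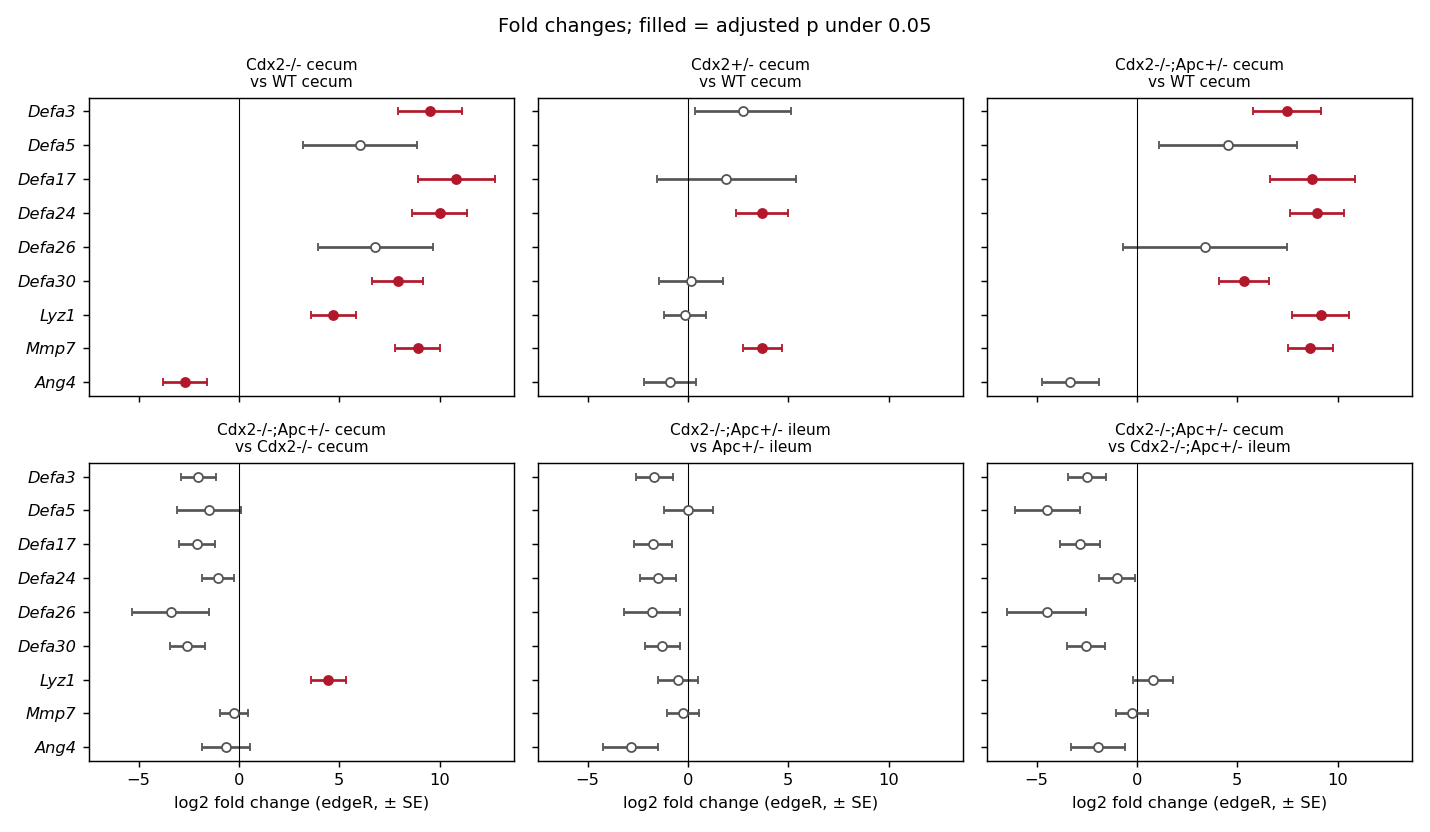
Log2 fold change ± SE (edgeR) of the 9 genes in 6 comparisons, filled where the adjusted p is under 0.05. Defa5 and Defa26 are left out where both groups had no read. For Cdx2-/- and Cdx2-/-;Apc+/- against WT cecum the 6 members called higher lie far to the right and Ang4 to the left, for Cdx2+/- against WT cecum only Defa24 and Mmp7 are filled, and in the comparison of Cdx2-/-;Apc+/- with Cdx2-/- cecum only Lyz1 is filled.

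Divided by transcript length, the order of the members differed between tissues. In Apc+/- ileum the mean level per kilobase was 1098 CPM for Lyz1, 845 for Defa24, 270 for Mmp7, 147 for Defa30, 132 for Ang4, 70.8 for Defa3, 60.5 for Defa17, 5.11 for Defa26 and 3.09 for Defa5. In Cdx2-/- cecum Defa24 led with 321 CPM per kilobase, followed by Mmp7 with 228, Lyz1 with 86.2, Defa30 with 68.7 and Ang4 with 18.1. In Cdx2-/-;Apc+/- cecum Lyz1 led with 1368, followed by Mmp7 with 190 and Defa24 with 151. Levels of Defa3, Defa5 and Defa17 are uncertain, since these genes share most of their sequence with other genes. The libraries of a group spread widely, up to 34.1-fold for Lyz1 and 645-fold for Ang4 in Cdx2-/- cecum, so neighbours in these orders overlap.

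The mix of defensins also differed between libraries. Defa24 made up 89.1, 51.5 and 50.1% of all Defa reads in Cdx2-/- replicates 1 to 3 and 60.4, 80.4 and 90.6% in replicates 4 to 6. It made up 91.8, 83.9 and 86.2% in Cdx2-/-;Apc+/- cecum, 56.2, 57.1 and 63.7% in Apc+/- ileum and 47.4, 43.3 and 65.3% in Cdx2-/-;Apc+/- ileum. The widest exact 95% binomial interval of these, for counting error only, was 62.8 to 67.7% in Cdx2-/-;Apc+/- ileum replicate 3. Reads aligned to several places were left out, so the shares hold for counted reads only. Copies with much shared sequence may be undercounted against Defa24, and shared windows of the 33 other Defa genes were not computed. By level, Cdx2-/- replicates 1 and 5 had the least Defa24 of that group, 41.4 and 27.8 CPM, despite its high share. Reads of the 33 other Defa genes were few where Defa24 held a high share, which such a share partly implies. Their sum was 1.66, 0.695 and 1.71 CPM in Cdx2-/- replicates 1, 5 and 6, but 48.9, 49.9 and 30.8 CPM in replicates 2, 3 and 4. In Cdx2-/-;Apc+/- cecum it was 0.149, 3.84 and 4.84 CPM, and in Apc+/- ileum 132, 227 and 60.3 CPM.

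Fabp6, chosen after its values were seen, was high in the same Cdx2-/- libraries. It had 29.3, 29.1 and 60.9 CPM in replicates 2, 3 and 4, against 3.21, 0.961 and 2.07 CPM in replicates 1, 5 and 6. The lectin Itln1, a Paneth and goblet cell product also chosen after its values were seen, was highest in replicates 2, 3 and 4 as well, at 44.0, 41.4 and 259 CPM, against 12.3, 24.4 and 1.56 CPM. In Cdx2-/-;Apc+/- ileum, replicate 2 had the most of both Fabp6 (2016 CPM) and the other Defa genes (261 CPM), and replicate 3 the least (1.34 and 2.56 CPM). Cdx2+/- cecum did not follow: Fabp6 was 15.3, 152 and 122 CPM there, and the other Defa genes 0.217, 0.104 and 0.0366 CPM. Among the Cdx2-/- libraries, Defa24 was 134, 127 and 92.7 CPM in replicates 2, 3 and 4, and 41.4 and 27.8 CPM in replicates 1 and 5. Only replicate 6 broke this order, with the most Defa24 (383 CPM) at 2.07 CPM of Fabp6.

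**Figure D4:**
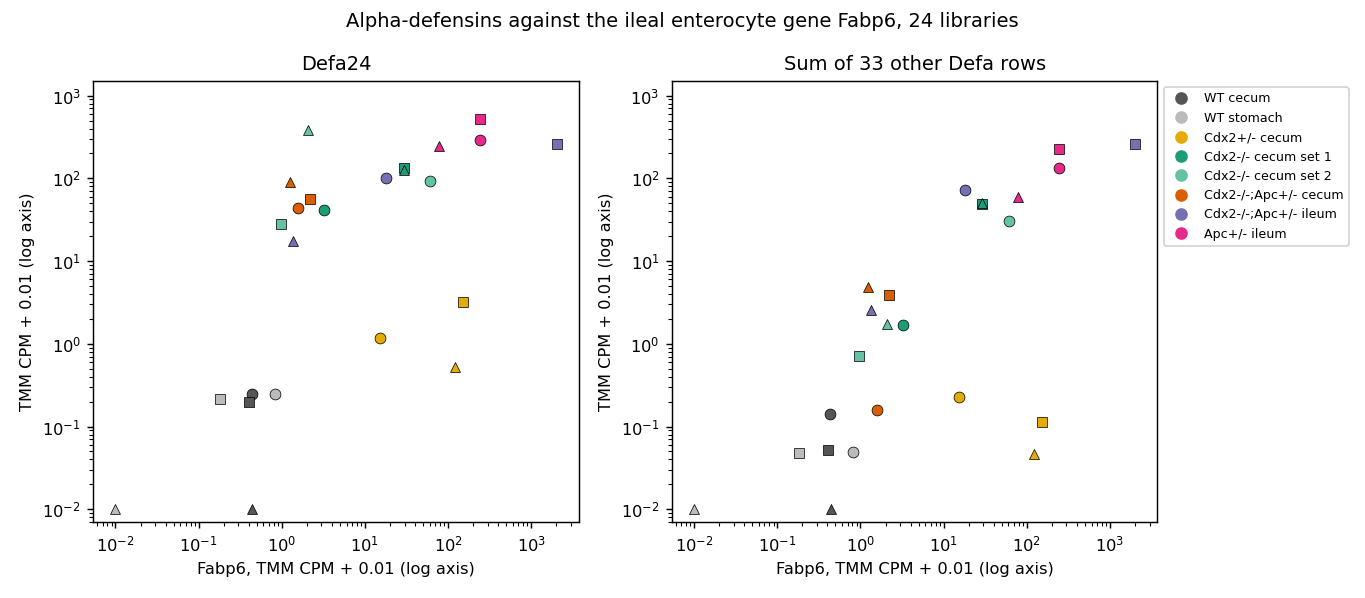
Defa24 (left) and the sum of the 33 other Defa genes (right) against the ileal enterocyte gene Fabp6, all as TMM CPM plus 0.01 on log axes, each point a library coloured by group. Circle, square and triangle stand for replicates 1 to 3, and 4 to 6 in set 2. Cdx2-/- replicates 2, 3 and 4 have 30.8 to 49.9 CPM of other Defa genes and the other 3 Cdx2-/- libraries 0.695 to 1.71 CPM, and the 3 Cdx2+/- libraries have high Fabp6 with few Defa reads.

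Across the 24 libraries, which mix groups and tissues, the Pearson correlation of log2 CPM was 0.99 for Defa3 with Defa17, which share their coding sequence, and 0.97 for Defa24 with Mmp7. Lyz1 had 0.84 with Defa24 and 0.83 with Mmp7. Ang4 had only 0.24 to 0.51 with the other members. Among 11975 other genes, the mean profile of the members was most like Rnf180, Hebp2 (0.90 each), Ecscr (0.89), Mmp14 and Slc20a2 (0.88 each). Lyz1 alone was most like Mmp14 and Rnf180 (0.94 each) and Slc38a1 (0.93), and Mmp7 alone Sulf2, Tnnt2 (0.95 each) and Lcn2 (0.94). Lcn2, an iron-sequestering defence protein, had 0.736 CPM on average in WT cecum, 14.4 in Cdx2+/-, 233 in Cdx2-/- and 461 in Cdx2-/-;Apc+/- cecum. These are descriptions over libraries that share groups.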

How the data were processed

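Total RNA was extracted with Trizol and sequenced from poly(A)-selecting TruSeq libraries that do not mark strand, per the labels' protocols. Raw read counts per Ensembl gene were made by the authors with CASAVA, TopHat2 2.0.11 and HTSeq 0.5.3p3 on GRCm38, per the submitters' processing notes. The sources used here give no counting options, so overlapping and antisense genes cannot be told apart. Each file listed 39179 genes, of which 37607 matched a GENCODE vM21 symbol, and 5 rows that name no gene were left out. They held reads in no gene, in more than 1 gene or aligned to several places.

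Counts were tested with edgeR 4.0.16 (R 4.3.3, quasi-likelihood F test, TMM, filterByExpr), fitted to all 8 groups with no block. Groups followed the titles, and the sets of Cdx2-/- cecum the library codes. Where both sets enter, their means were averaged, so the SE leaves out the difference between the sets. CPM used TMM library sizes, correlations a prior count of 2. P-values reflect only the spread among these libraries, which may be technical. The fit was tested on simulated data. Alternatives were DESeq2 1.42.0, upper-quartile scaling, no filter, a fit on the compared groups, a replicate block, summed paralogs, merged libraries and each library left out. Named were all members, the 4 most abundant other Defa genes, up to 3 called genes per list and comparison, and the genes most like the members with at least 10 CPM in a library. Members and lists were chosen with earlier results of these data known.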

Additional observations from a re-analysis of the deposited data

Results flagged for a closer look

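Within the 6 Cdx2-/- cecum libraries, 3 members had 1 library far from the rest (gap over range 0.701, 0.898 and 0.976) by Dixon's test. The ratio was taken on CPM, not on a log scale. A chance rate of about 1 in 20 holds only for independent values with a normal spread. All 3 flags were highest values, and replicates 2 and 3 were far closer to each other than any other pair of one group. The chance rate for the 9 genes examined is therefore not known, and the flags were not tested on a log scale. Replicate 6 was highest for Defa24, the defensin with the most counted reads, at 383 CPM, and for Lyz1 at 477 CPM. Replicate 4 was highest for Ang4 at 71.7 CPM. Replicate 6 had the lowest Ang4, at 0.111 CPM. The phospholipase gene Pla2g2a, a further Paneth cell product, also reached 51.3 CPM in replicate 6, against 1.40 to 4.16 CPM in the other 5 libraries.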

How the results depend on the processing

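Of 1089 fold changes recomputed for single members under an alternative, 1047 kept their side of the threshold, 16 lost a call and 26 gained one. Where paralogs were summed, the Lyz1 and Lyz2 sum stood in for Lyz1. Direction was compared only where a fit called the gene, and there 0 reversed. Changes without a call could switch sign, as Ang4 did in Cdx2-/-;Apc+/- against Cdx2-/- cecum (-2.88 to 1.67). Of the 16 lost calls, 10 were Ang4 in Cdx2-/- against WT cecum. The count of members called in Cdx2-/-;Apc+/- against Cdx2-/- cecum was 1, and it was 2 with a replicate block, 2 against set 1 alone and 0 against set 2 alone, the last 2 chosen after seeing the data. Leaving out each library gave 0 to 2 there, 0 to 4 in Cdx2-/-;Apc+/- cecum against ileum, 1 to 2 in Cdx2+/- against WT cecum and 0 to 1 between the sets. DESeq2 called 1 member between the sets. The cause of these shifts was not tested.

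Whether the replicate numbers pair the samples was not settled. In no comparison were all 3 correlations of same-numbered deviations above 0.1 (range -0.30 to 0.23), though Cdx2+/- against WT cecum gave 0.12, 0.08 and 0.17. Deviations from means of 3 libraries cannot exclude pairing. With a replicate block, which leaves out set 2, 2 members were called in Cdx2-/-;Apc+/- cecum against ileum in place of 0. Lone libraries, shared sequence and totals of a few reads for Defa5 and Defa26 limit what these counts can show.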

Other observations

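Pla2g2a, a secretory phospholipase of Paneth cells, had 444, 395 and 414 CPM in Apc+/- ileum and 264, 356 and 657 CPM in Cdx2-/-;Apc+/- ileum. In the cecum it had 0.0265, 0 and 0.0594 CPM in WT, 4.99, 2.76 and 3.06 CPM in Cdx2+/-, 1.40 to 51.3 CPM in Cdx2-/- and 3.81, 30.9 and 43.7 CPM in Cdx2-/-;Apc+/-. Cdx2-/-;Apc+/- ileum replicate 3, which had the least Defa24 of the ileum libraries, thus had the most Pla2g2a and 1507 CPM of Lyz1. Mptx2, a pentraxin, had 0 CPM in Cdx2-/- cecum replicate 6, the library with the most Defa24 in the cecum, and 0.736 to 7.55 CPM in the other 5. Both genes were singled out after their values were seen, and the differences between these libraries were not tested.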
